A study of Acomys cahirinus and Mus musculus with 10 samples.

Results

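The 9 genes described here encode transcription factors of mesenchyme and of the blastema, the mass of proliferating cells that forms at a regenerating wound: *Msx1*, *Prrx1*, *Prrx2*, *Twist1*, *Twist2*, *Snai1*, *Snai2*, *Runx1* and *Runx2*. They were chosen by name and not by a cut on a measured value, but with earlier results of these data known. They were 9 of 24092 *M. musculus* genes and 9 of 676820 *A. cahirinus* assembly components with a value in any table. RNA-Seq was done on a ring of ear tissue behind the healing margin of a 4-mm through-and-through ear punch, in sexually mature females of the spiny mouse *A. cahirinus*, labelled as regenerating, and of *M. musculus*, labelled as fibrotic. The labels give no strain, and the study's supplement names the *M. musculus* of the RNA-Seq as CD1, a laboratory strain that the study calls outbred. Groups were uninjured ear at D0 and injured ear at D5, D10, D15 and D20, with 3 animals per species and time point as the study describes it and no treatment other than the punch. The tables give 1 comparison with D0 for each species and day, as fold changes and a posterior probability with no values per animal. Every level below is a group mean calculated back from the fold changes, and carries no spread between animals.

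MSX1 and the PRRX proteins are homeodomain factors of undifferentiated mesenchyme in the limb bud and face, and *Msx1* is needed for regeneration of the fetal mouse digit tip. TWIST1 and TWIST2 are basic helix-loop-helix factors of cranial and dermal mesenchyme that bind DNA with a partner E protein, and SNAI1 and SNAI2 are zinc-finger repressors known for silencing E-cadherin when epithelial cells become mobile. RUNX1 directs blood formation and is also made in follicle and wound cells, whereas RUNX2 is the regulator of bone-forming cells and of maturing cartilage, and both bind DNA with the shared partner CBFB.

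On GRCm38, *Msx1* lies at chr5:37820485-37824583 on the minus strand, *Prrx1* at chr1:163245119-163313710 on the minus strand and *Prrx2* at chr2:30834972-30881251 on the plus strand. *Twist1* lies at chr12:33957671-33959829 and *Twist2* at chr1:91801461-91848028, both on the plus strand. *Snai1* lies at chr2:167538195-167542814 and *Snai2* at chr16:14705852-14709385, both on the plus strand. *Runx1* lies at chr16:92601466-92826149 and *Runx2* at chr17:44495987-44814797, both on the minus strand. In *A. cahirinus* each gene was read from the assembly component with the top BLASTN score below 99% identity, where a component is a set of contigs that the assembler joined. The identity of the top alignment ranged from 91.17% over 532 bases for *Prrx2* to 96.7% over 848 bases for *Runx2*. The component covered all of the coding sequence for *Msx1*, *Prrx1*, *Twist2*, *Snai1* and *Snai2*, 1339 of 1395 coding bases for *Runx1*, 429 of 741 for *Prrx2*, 848 of 1896 for *Runx2* and 216 of 618 for *Twist1*.

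Since 4 pairs of paralogs are among the members and *Msx1* has the paralog *Msx2*, the coding sequences were compared to see how far a read of 50 bases can tell them apart. In the *M. musculus* coding sequences, no 50-base window was identical within a pair. Sequence outside the coding part was not compared, and in *A. cahirinus* only the counterpart of the closest window was looked at. The closest windows differed at 3 bases for *Twist1* and *Twist2*, at 5 for *Prrx1* and *Prrx2* and for *Runx1* and *Runx2*, and at 6 for *Snai1* and *Snai2* and for *Msx1* and *Msx2*. The closest windows of the *Twist* and *Runx* pairs are shown, the former because it is the most alike. The latter is shown because the component for *Runx2* in *A. cahirinus* gave the opposite direction to the other *Runx2* components with a mean of at least 10. Capitals mark bases that differ from the paralog in *M. musculus*, and bases that differ from the *M. musculus* gene in *A. cahirinus*.
*M. musculus* Twist1: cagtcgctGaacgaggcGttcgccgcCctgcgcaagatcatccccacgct
*M. musculus* Twist2: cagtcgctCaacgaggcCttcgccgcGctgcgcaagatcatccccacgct
*A. cahirinus* Twist2: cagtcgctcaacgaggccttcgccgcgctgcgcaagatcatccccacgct
*M. musculus* Runx1: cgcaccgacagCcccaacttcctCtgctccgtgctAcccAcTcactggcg
*M. musculus* Runx2: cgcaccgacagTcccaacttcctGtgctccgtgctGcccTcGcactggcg
*A. cahirinus* Runx1: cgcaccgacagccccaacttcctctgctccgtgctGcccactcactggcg
*A. cahirinus* Runx2: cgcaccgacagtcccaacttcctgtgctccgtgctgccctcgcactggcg
On GRCm38 the *Twist1* window lies at chr12:33958353-33958402 in exon 1 and the *Twist2* window at chr1:91801864-91801913 in exon 1. The *Runx1* window lies at chr16:92695515-92695564 in exon 3 of 8 and the *Runx2* window at chr17:44735264-44735313 in exon 1 of 7. The *A. cahirinus* component for *Twist1* did not reach this window, and that for *Prrx2* did not reach the closest window of its own pair. The windows of *Runx1* and *Runx2* in *A. cahirinus* differed at 4 bases from each other. How reads were shared between paralogs was not tested.

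The component for *Runx2* in *A. cahirinus* held 32 contigs, of which 14 matched *Runx2* and 16 matched another gene, *Tsc22d3*, which encodes a glucocorticoid-induced leucine zipper protein. None matched both, and 2 matched neither. The *Tsc22d3* alignment had the higher bit score, 2026 against 1459. A run of up to 72 bases in *Runx2* contigs was made up of 40-base stretches also found in *Tsc22d3* contigs. Such a stretch was held by 6 *Runx2* contigs and 3 *Tsc22d3* contigs. A stretch of 60 coding bases from each gene is shown to make the mixture visible, with capitals where the *M. musculus* and *A. cahirinus* bases of a gene differ.
*A. cahirinus* Runx2 contig: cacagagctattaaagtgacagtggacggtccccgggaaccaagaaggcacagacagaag
*A. cahirinus* Tsc22d3 contig: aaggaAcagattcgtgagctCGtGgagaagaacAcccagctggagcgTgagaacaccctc
*M. musculus* Tsc22d3: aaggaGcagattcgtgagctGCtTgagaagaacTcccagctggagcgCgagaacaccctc
The *Runx2* stretch was the same in both species and spans exons 3 and 4 of 7, and the *Tsc22d3* stretch, at chrX:140540994-140541053 in exon 2 of 2, differed at 6 bases. The value of the component is the sum over its contigs, so it mixes both genes. It was kept as the value of *Runx2* by the rule, and the next component is given beside it in the counts, the medians and the account of *Runx2*. That component was a single contig 91.85% identical to *Runx2* over 798 bases, with no match to *Tsc22d3*.

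The sum of the group means was between 14454829 and 18203633 normalized counts in *A. cahirinus* and between 7330084 and 9409080 in *M. musculus*. All 9 members had a mean of at least 10 in every comparison. The counting error of a log2 change, which leaves out the spread between animals, was between 0.02 and 0.03 for *Prrx1* and between 0.21 and 0.23 for *Snai1* in *M. musculus*, the lowest and highest ranges of the members. In 9 of the 10 groups the lowest means fell on 3 steps, as 1 read in each of 3 libraries would give. At D15 in *A. cahirinus* they fell on 2 steps, at 0.374 and 0.609, and the cause was not tested. Whether 3 separate libraries stand behind each *A. cahirinus* mean and call at D15, as at the other times, is thus not known, and those values are given together with those of the other days. In whole tissue, fewer cells of a type and less RNA per cell cannot be told apart.

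A change was called at a posterior probability of at least 0.95 in the table of that species and day, and rose, fell and changed are used below of called changes only. In *M. musculus*, 4 of 9 members were called higher at D5, 6 (D10), 7 (D15) and 8 (D20), and none was called lower on any day. Over all *M. musculus* genes, 16.5%, 15.1%, 13.2% and 12.3% were called higher on these days and 13.6%, 14.1%, 12.5% and 11.9% were called lower. In *A. cahirinus*, 2 of 9 were called higher at D5, 4 (D10), 6 (D15) and 6 (D20), against 1.78%, 1.28%, 1.33% and 0.948% of all components. Called lower in *A. cahirinus* were 2 members at D5 and 1 on each later day, against 0.978%, 0.88%, 1.11% and 0.9% of all components. With the component of *Runx2* that has no *Tsc22d3* contig, a choice made after seeing the data, 2, 5, 7 and 7 members were called higher and 2, 0, 0 and 0 lower. Most assembly components had few reads, and of those with a mean of at least 10 in D0 or the day, 7.52%, 5.06%, 5.13% and 4.02% were called higher. Of the same components, 4.09%, 3.37%, 4.11% and 3.86% were called lower. In *M. musculus* the shares with this least mean were 23.8%, 21.3%, 18.9% and 17.6% higher and 19.4%, 19.6%, 17.9% and 17.0% lower.

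The median log2 change of the 9 members was 0.18 (D5), 0.73 (D10), 1.18 (D15) and 1.02 (D20) in *A. cahirinus*. With the *Runx2* component that has no *Tsc22d3* contig it was 0.26, 0.95, 1.19 and 1.37. In *M. musculus* it was 1.28, 1.43, 1.72 and 1.52. Over all features with a mean of at least 10, the median lay between -0.02 and 0.02 in each of the 8 tables. The median of the members thus stood above the middle of the tables in both species from D10 on, and at D5 in *M. musculus* by more than in *A. cahirinus*. Not every member did: *Msx1* and the mixed *Runx2* component in *A. cahirinus* had negative changes from D10 on. *Snai2* in *M. musculus* had them at D10 and D15. The difference between the species was not tested.

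**Figure D1:**
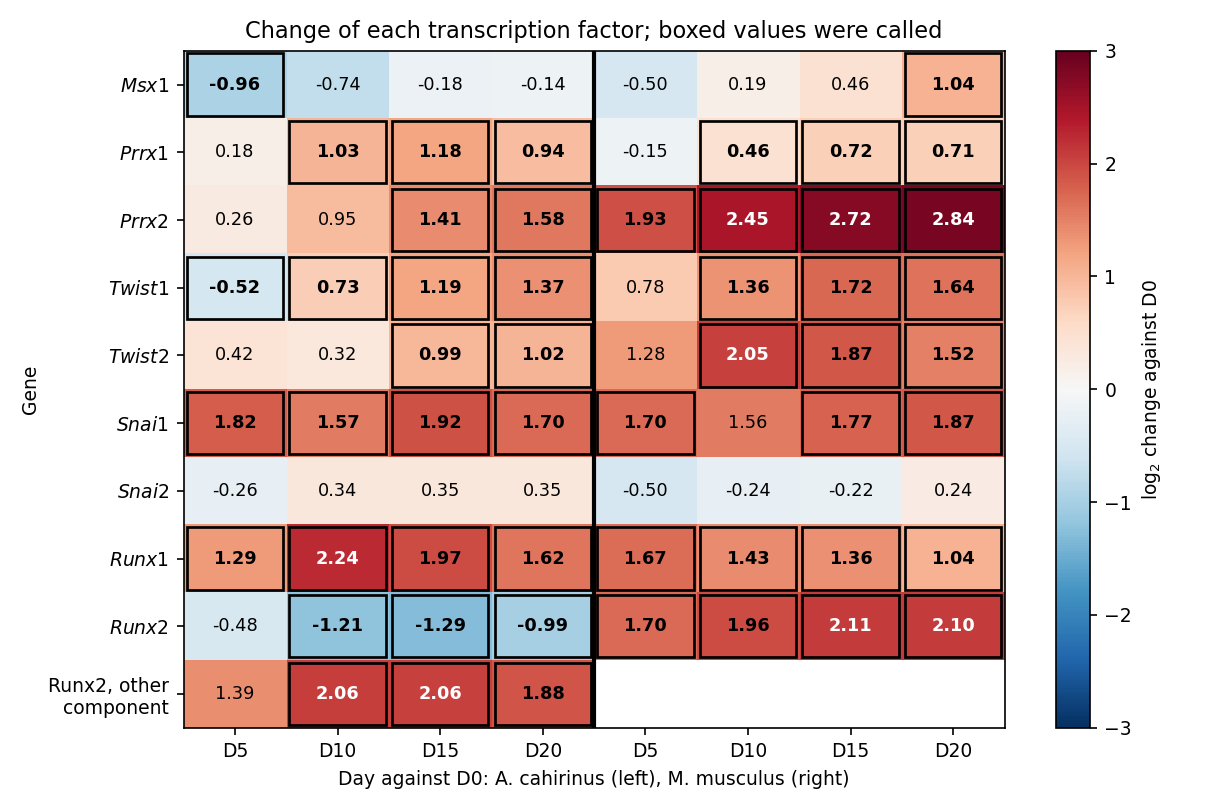
Log2 change of each member against D0 by day, *A. cahirinus* in the left 4 columns and *M. musculus* in the right 4, in red where higher and in blue where lower after injury. Boxed values were called, and the bottom row gives the *Runx2* component with no *Tsc22d3* contig, which was between 1.39 and 2.06 where the component by score was between -1.29 and -0.48.

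*Msx1* was the one homeobox gene of the members that did not rise in *A. cahirinus*. Its mean there was 109.8 (D0), 56.5 (D5), 65.5 (D10), 97.1 (D15) and 99.5 (D20) normalized counts. It fell by 0.96 on the log2 scale at D5, with a posterior probability of 0.9995, and the later changes of -0.74, -0.18 and -0.14 were not called. The *M. musculus* mean was 76.4 (D0), 53.9 (D5), 86.9 (D10), 104.9 (D15) and 157.0 (D20). Here the only called change was the rise at D20, of 1.04 on the log2 scale with a posterior probability of 0.9994. The changes of -0.50 at D5, 0.19 at D10 and 0.46 at D15 were not called. In both species D5 was thus the lowest group, while D20 was the highest group in *M. musculus* and lay below D0 in *A. cahirinus*. The second component matching *Msx1* in *A. cahirinus* had no reads at D0 and a mean of at most 1.12 in the tables, so it gives no second reading.

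*Prrx1* had a mean in *A. cahirinus* of 1170.0 (D0), 1323 (D5), 2391 (D10), 2646 (D15) and 2238 (D20). Of the 7 contigs of this component, 6 matched *Prrx1* best and 1 matched *Brd8* better, so its value may include reads of *Brd8*. The share of its reads that came from each gene was not tested. By this component *Prrx1* rose at D10, D15 and D20, by 1.03, 1.18 and 0.94 on the log2 scale, and the D5 change of 0.18 was not called. The other components matching *Prrx1* also rose on those days, one by 1.94, 2.15 and 1.90 and one by 1.18, 1.28 and 1.05, and the first of these was called at D5 too, at 0.94. In *M. musculus* the mean was 1703 (D0), 1534 (D5), 2339 (D10), 2801 (D15) and 2779 (D20). The rise there was 0.46, 0.72 and 0.71 at D10, D15 and D20, and the D5 change of -0.15 was not called. By the component chosen, *Prrx1* was therefore called on the same 3 days in both species, with D5 close to D0 in each.

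*Prrx2*, the second member of this homeobox family, rose on every day in *M. musculus*. Its mean there was 19.6 (D0), 74.9 (D5), 107.4 (D10), 129.5 (D15) and 140.3 (D20). The log2 changes were 1.93, 2.45, 2.72 and 2.84, or 3.82-fold at D5 and 7.15-fold at D20. In *A. cahirinus* the mean was 49.4 (D0), 59.1 (D5), 95.4 (D10), 131.4 (D15) and 147.5 (D20). It rose there at D15 and D20, by 1.41 and 1.58, while the changes of 0.26 at D5 and 0.95 at D10 were not called, the latter with a posterior probability of 0.0193. The mean was higher at each time point than at the one before in both species, with no test of these steps. The D0 mean was the higher one in *A. cahirinus*, in tables normalized separately. The sum of the group means was also larger there, so these D0 levels are not on a common scale. A change of 1.93-fold that was not called stands beside a called change of 1.44-fold for *Twist1* at D5 in the same species, and the cause was not tested.

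*Twist1* had a mean in *A. cahirinus* of 171 (D0), 119.2 (D5), 284.9 (D10), 390.5 (D15) and 442.1 (D20). It fell at D5 by 0.52 on the log2 scale, with a posterior probability of 0.998, and rose at D10, D15 and D20 by 0.73, 1.19 and 1.37. It was the one member called in both directions within a species. A second component matching *Twist1* had log2 changes of -1.53, 0.32, 0.86 and 1.18 and was called on no day. The *M. musculus* mean was 98.4 (D0), 169.0 (D5), 251.9 (D10), 324.2 (D15) and 306.4 (D20). The rise there was 1.36, 1.72 and 1.64 from D10 on, and the D5 change of 0.78 had a posterior probability of 0.827. At D5 the sign of the change thus differed between the species, and the *M. musculus* change was not called.

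*Twist2* had a mean in *A. cahirinus* of 195.8 (D0), 262.2 (D5), 243.9 (D10), 389.3 (D15) and 395.9 (D20). It rose at D15 and D20, by 0.99 and 1.02 on the log2 scale, and the changes of 0.42 at D5 and 0.32 at D10 were not called. In *M. musculus* the mean was 27.6 (D0), 67.1 (D5), 114.1 (D10), 101.0 (D15) and 79.1 (D20). The rise was 2.05, 1.87 and 1.52 on the later days, and the D5 change of 1.28 had a posterior probability of 0.293. The highest group was D10 in *M. musculus* and D20 in *A. cahirinus*.

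*Snai1* had nearly the same change in both species. Its mean in *A. cahirinus* was 54.0 (D0), 190.1 (D5), 159.8 (D10), 203.9 (D15) and 175.0 (D20). It rose on all 4 days, by 1.82, 1.57, 1.92 and 1.70 on the log2 scale. The *M. musculus* mean was 17.9 (D0), 58.2 (D5), 52.9 (D10), 61.0 (D15) and 65.5 (D20). The log2 changes were 1.70, 1.56, 1.77 and 1.87, of which that at D10, with a posterior probability of 0.932, was not called. Each day's level was 2.95-fold to 3.78-fold that of D0, whichever the species.

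*Snai2* was called on no day in either species by the component chosen. In *A. cahirinus* its mean was 142.6 (D0), 119.3 (D5), 180.6 (D10), 181.8 (D15) and 181.5 (D20), with log2 changes of -0.26, 0.34, 0.35 and 0.35. In *M. musculus* the mean was 225.6 (D0), 159.9 (D5), 191.2 (D10), 193.9 (D15) and 266.5 (D20), with log2 changes of -0.50, -0.24, -0.22 and 0.24. A second *A. cahirinus* component, 88.27% identical to *Snai2* over 827 bases, was called higher from D10 on. In the tables of those days, on their own scales, its mean went from 65.2 to 140.1 (D10), from 63.3 to 121.8 (D15) and from 56.9 to 130.6 (D20), and its D5 change of 0.43 on the log2 scale was not called. Both components went up from D5 to D10, and D5 was the lowest group of *Snai2* in both species by the component chosen.

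*Runx1* rose on every day in both species. Its mean in *A. cahirinus* was 707.2 (D0), 1725 (D5), 3345 (D10), 2764 (D15) and 2166 (D20). The log2 changes were 1.29, 2.24, 1.97 and 1.62, the D10 change being 4.73-fold. The 2 other components with a mean of at least 10 had changes of 1.09 to 1.68 at D5 and of 2.41 to 3.03 at D10, of which that of 1.68 was not called. The *M. musculus* mean was 368.5 (D0), 1174 (D5), 991.3 (D10), 947.2 (D15) and 759.5 (D20). The log2 changes were 1.67, 1.43, 1.36 and 1.04. The highest group was D5 in *M. musculus*, with lower means on each later day, and D10 in *A. cahirinus*. Leukocytes also express *Runx1*. Of 5 leukocyte markers in *A. cahirinus*, 5, 4, 4 and 3 were called higher from D5 to D20, and of the 4 placed in *M. musculus* 4, 1, 4 and 3, with none called lower. Their summed level was 789.1 (D0), 4795 (D5), 1937 (D10), 1486 (D15) and 1143 (D20) in *A. cahirinus*. In *M. musculus* it was 835.9, 2480, 1449, 1523 and 1296. The sum was highest at D5 in both species. *Runx1* was highest at D5 too in *M. musculus*, and at D10 in *A. cahirinus*. The part of leukocytes in the *Runx1* result was not tested.

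*Runx2* rose on every day in *M. musculus*, where its mean was 67.6 (D0), 220.3 (D5), 263.6 (D10), 291.3 (D15) and 289.5 (D20). The log2 changes were 1.70, 1.96 and 2.11 up to D15, and the D20 level was 4.28-fold that of D0. In *A. cahirinus* the component by score, which also holds *Tsc22d3*, had a mean of 1330 (D0), 951.8 (D5), 574.8 (D10), 544.0 (D15) and 670.1 (D20). It fell at D10, D15 and D20, by 1.21, 1.29 and 0.99 on the log2 scale, and its D5 change of -0.48 had a posterior probability of 0. *Tsc22d3* in *M. musculus* fell on all 4 days, with log2 changes of -0.77, -0.98, -0.89 and -0.60. The contig with no *Tsc22d3* match went the other way, with means of 26.1 (D0), 68.5 (D5), 108.9 (D10), 108.4 (D15) and 95.7 (D20). It rose at D10, D15 and D20, by 2.06, 2.06 and 1.88, and its D5 change of 1.39 had a posterior probability of 0.831.

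The assembly held 7 components whose best match was *Runx2*, each a single contig without a *Tsc22d3* match. Of the 5 with a mean of at least 10 at D10, D15 or D20, all had a positive change on these days and 4 were called. Their changes were between 1.45 and 2.29 at D10, between 1.55 and 2.50 at D15 and between 1.18 and 2.24 at D20. Summed over the 7, the level was 119.4 (D0), 258.7 (D5), 428.3 (D10), 429.2 (D15) and 343.0 (D20). Among the *Runx2* components with a mean of at least 10, the mixed one was the 1 with a negative change. The share of its reads that came from each gene was not tested.

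**Figure D2:**
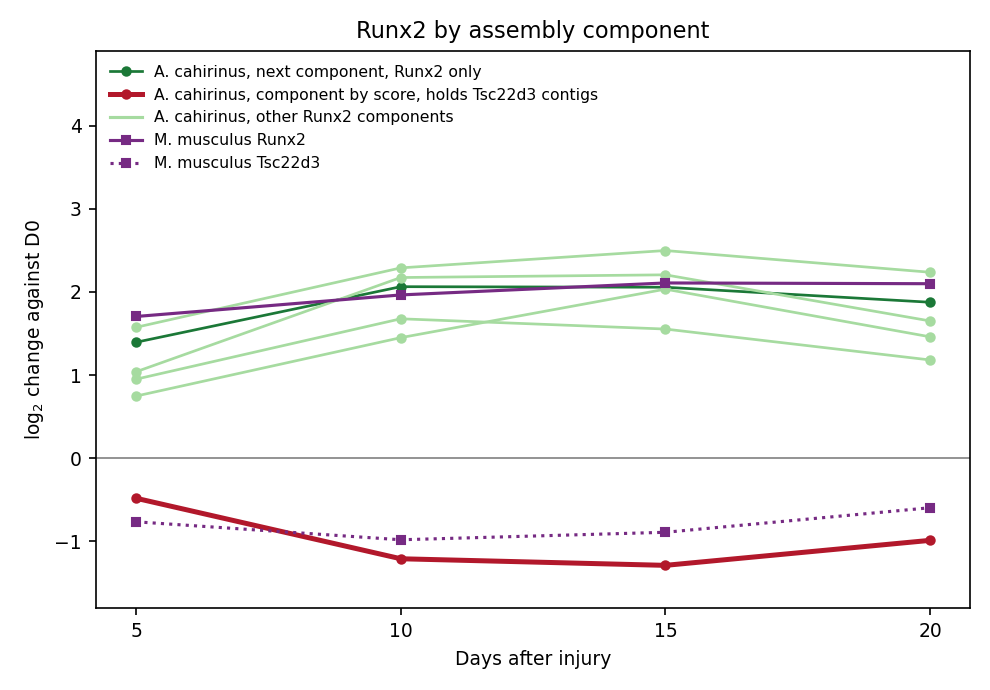
Log2 change against D0 by day of the *A. cahirinus* component chosen by score for *Runx2* (red), of the components whose best match is *Runx2* and which reached a mean of 10 (greens) and of *Runx2* and *Tsc22d3* in *M. musculus* (purple). The red line lies between -1.29 and -0.48 beside *Tsc22d3* of *M. musculus* at -0.98 to -0.60, and every green line lies above 0.

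**Figure D3:**
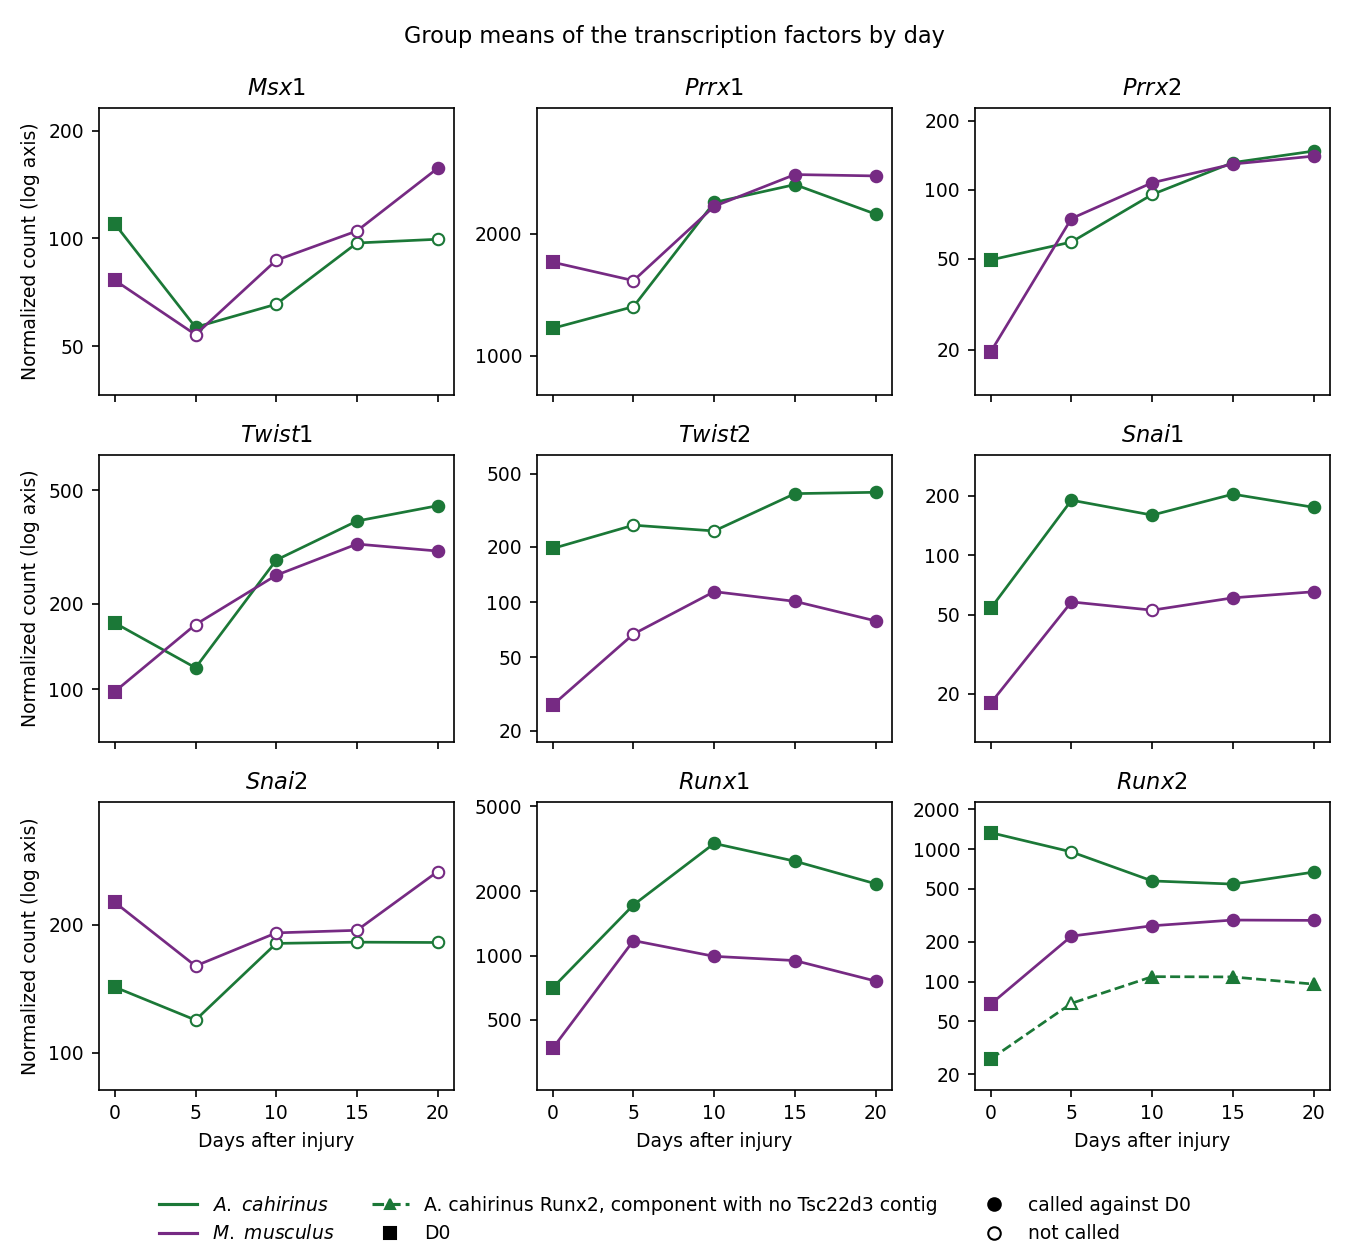
Group means of each member in normalized counts, on a log axis, by day after injury in *A. cahirinus* (green) and *M. musculus* (purple), with squares for D0, filled points for days called against D0 and open points for days not called. The species were normalized separately and no error bar can be drawn, since the tables hold no values per animal. *Prrx2* and *Twist1* reach their highest *A. cahirinus* mean at D20, *Runx1* has its highest mean at D10 in *A. cahirinus* and at D5 in *M. musculus*, and *Snai1* is near its highest mean from D5 on in both.

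Set side by side, the mean log2 change over the 4 days was closest between the species for *Snai1*, at 1.75 in *A. cahirinus* and 1.72 in *M. musculus*, a difference of 0.03. It was higher in *A. cahirinus* by 0.40 for *Prrx1*, by 0.37 for *Snai2* and by 0.40 for *Runx1*. The difference, *A. cahirinus* minus *M. musculus*, was -0.68 for *Twist1*, -0.80 for *Msx1*, -0.99 for *Twist2* and -1.44 for *Prrx2*. For *Runx2* it was -2.96 with the component by score and -0.12 with the component that has no *Tsc22d3* contig. The differences of *Msx1*, *Prrx2*, *Twist1* and *Twist2* were negative on each of the 4 days and those of *Prrx1* and *Snai2* were positive on each day. That of *Runx1* was -0.39 at D5 and between 0.57 and 0.81 afterwards. For *Twist1* it went from -1.30 at D5 to -0.27 at D20. None of these differences was tested, because each species was normalized on its own and the spread between animals is not in the tables.

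**Figure D4:**
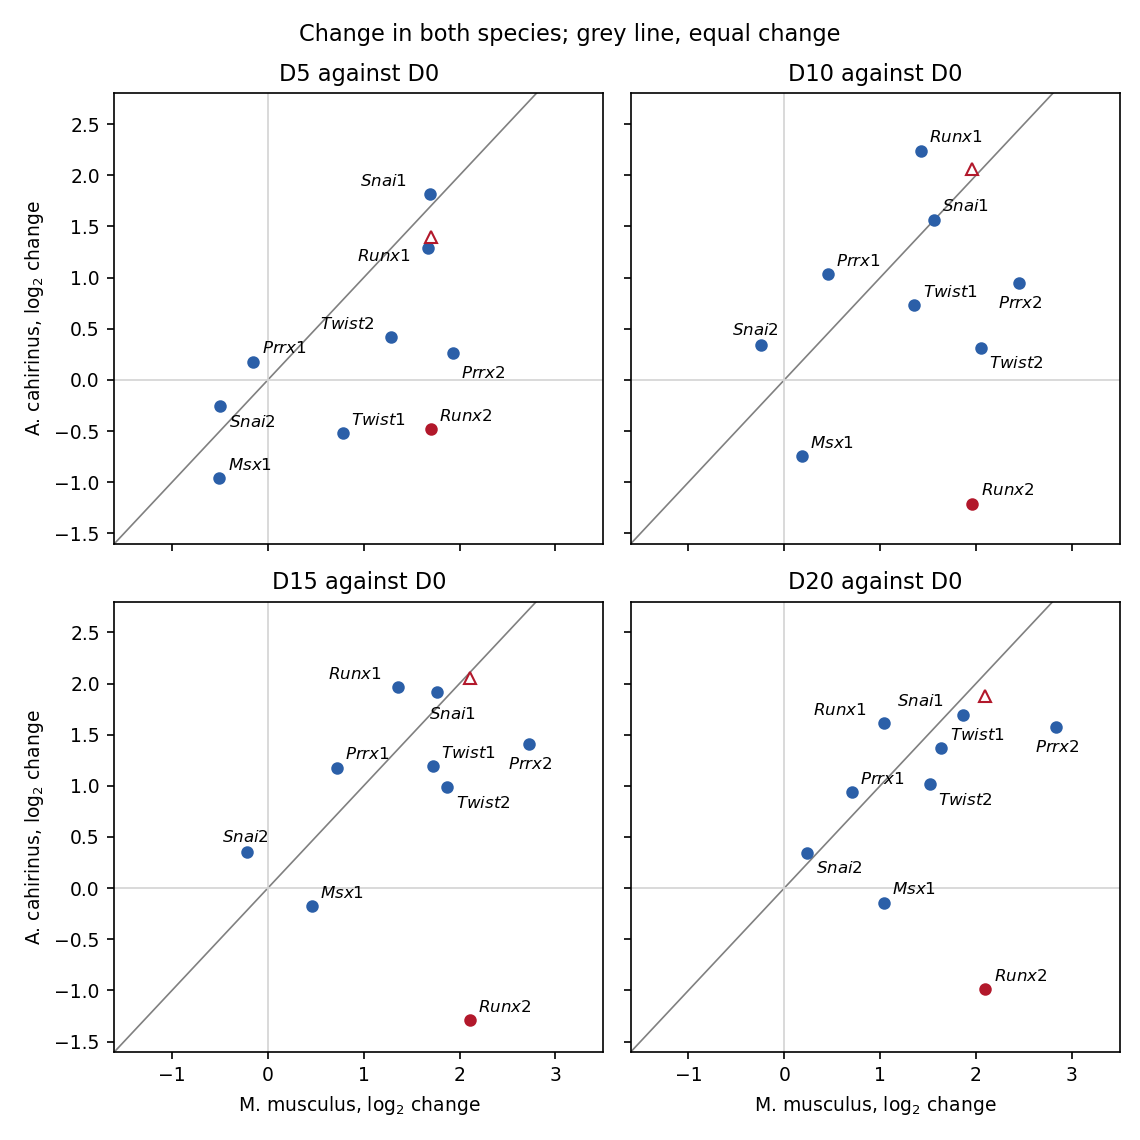
Log2 change of each member in *M. musculus* (horizontal) and *A. cahirinus* (vertical) on each day, with a grey line where both are equal. *Runx2* is in red, with a filled point for the component by score and an open triangle for the one with no *Tsc22d3* contig. *Prrx2*, *Twist1*, *Twist2* and *Msx1* lie below the line on all 4 days, and *Prrx1* and *Snai2* lie above it.

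Partners and relatives of the members were 13 genes: *Msx2*, *Snai3*, *Zeb1*, *Zeb2*, *Runx3*, the RUNX partner *Cbfb*, the E proteins *Tcf3*, *Tcf4* and *Tcf12*, and *Id1* to *Id4*, whose products bind E proteins and keep them from DNA. In *A. cahirinus* 3 of 13 were called higher and 2 lower at D5, then 5 and 1 (D10), 6 and 1 (D15) and 6 and 1 (D20). The component chosen for *Snai3* was that of *Snai1*, so it gives no value of its own although it counts here as called higher on all 4 days. In *M. musculus*, 2 of the 12 placed were called higher and 4 lower at D5, then 5 and 3 (D10), 7 and 1 (D15) and 6 and 1 (D20). *Id4* had the lowest mean change of the list in both species and fell on all 4 days in each. The *A. cahirinus* log2 changes were -1.21, -0.72, -1.07 and -0.84 and those of *M. musculus* -1.11, -1.48, -1.09 and -0.66. *Id3*, the highest in *M. musculus*, rose there at D10, D15 and D20 by 1.01, 1.39 and 1.52 and in *A. cahirinus* on the same days by 0.62, 0.80 and 0.68. *Tcf3* was called higher on all 4 days in both species and *Cbfb* on all 4 days in *A. cahirinus* and up to D15 in *M. musculus*, these being named after their values were seen. The other E proteins differed from *Tcf3* at D5. *Tcf4* was called lower at D5, at -0.58 in *A. cahirinus* and -0.44 in *M. musculus*, and higher at D15 and D20 in both. *Tcf12* was not called at D5 in either species and was called higher on the later days in both. The level of *Cbfb* went from 729.0 to 1267 between D0 and D5 in *A. cahirinus*, while in *M. musculus* it went from 680.7 to 862.3.

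Of 41 other mesenchymal and patterning transcription factors, 28 had a component in *A. cahirinus*, 5 of them one that matched another gene better, and 34 could be placed in *M. musculus*. In *A. cahirinus* 0 were called higher and 8 lower at D5, then 4 and 8 (D10), 7 and 6 (D15) and 7 and 3 (D20). In *M. musculus* 5 were called higher and 8 lower at D5, then 8 and 3 (D10), 7 and 3 (D15) and 7 and 3 (D20). *Sox11*, made in embryonic mesenchyme and nerve, had the highest mean change in *M. musculus*, with log2 changes of 3.98, 4.25, 3.58 and 2.04 starting at a D0 mean of 6.05, and rose in *A. cahirinus* at D10, D15 and D20 by 2.64, 2.63 and 2.53. *Eya1*, a coactivator of the sine oculis homeobox factors, had the lowest mean change in *M. musculus*, with values of -1.91, -1.66, -1.63 and -1.55, and in *A. cahirinus* it fell by 2.11, 1.53, 1.22 and 1.75. In *A. cahirinus* the lowest was *Foxc2*, with a D0 mean of 14.6 and a D15 mean of 3.29, called at D10 and D15. The highest was the component chosen for *Tcf21*, which matched *Msc* better and was called on no day.

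Targets known from other work were 13 genes, among them the cadherins *Cdh1* and *Cdh2*, tight junction genes, *Mmp13* and bone matrix genes. In *A. cahirinus* 8 were called higher and 2 lower at D5, then 7 and 3 (D10), 7 and 3 (D15) and 8 and 2 (D20), and in *M. musculus* 7 and 3, 7 and 3, 6 and 3 and 6 and 3. The component chosen for the target *Csf1r* in *A. cahirinus* matched *Cdc73* better, so the counts there include 1 value of another gene. *Mmp13*, a collagenase and a RUNX2 target in bone, had the highest mean change in both species. Its D0 and D10 means were 5.33 and 801.4 in *A. cahirinus*, against 1.55 and 65.7 in *M. musculus*, and it was called on all days but D20 in *M. musculus*. The tight junction gene *Ocln*, which SNAI factors repress, was the lowest in both and fell on all 4 days, by 0.51 to 0.90 on the log2 scale in *A. cahirinus* and by 0.85 to 1.28 in *M. musculus*. *Cdh1*, the E-cadherin gene, named after its values were seen, rose at D5 in *A. cahirinus* by 0.43 on the log2 scale and fell there on the later days by 0.49, 0.68 and 0.72, and in *M. musculus* it fell by 0.31, 0.91, 0.91 and 0.97. The median change of this list was between 0.84 and 1.77 in *A. cahirinus* and between 0.79 and 1.32 in *M. musculus*. The 1.77 is the D20 change of *Sp7*, which went from 1.65 to 5.66 and was not called. The table medians near 0 leave out features as low as this, so they are no like-for-like background. The list was also chosen with earlier results of these data known, and it holds repressed targets such as *Ocln*. Its median therefore cannot show whether the members acted on their targets, which was not tested.

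Of 6 fibroblast and mesenchyme markers, 2 were called higher at D5, 6 (D10), 6 (D15) and 5 (D20) in *A. cahirinus*, and 5 on each day in *M. musculus*, and none was called lower. Their summed level, most of it collagen, was 28061 at D0, 32026 at D5 and 148427 to 198575 later in *A. cahirinus*, and 37440 at D0, 168596 at D5 and 342393 to 371875 later in *M. musculus*. The sum at D5 was thus close to D0 in *A. cahirinus* and well above it in *M. musculus*. Within the *A. cahirinus* sum at D5, *Col1a1* was lower than at D0, at 4644 against 6927, and the other markers of the list were higher. One of these was the component chosen for *Thy1*, at 3659 against 1451, which matched *Rapgefl1* better. The part of fibroblast number in the results of the members was not tested. Cycling markers were called higher for 4 of 4 at D5, D10 and D15 and 3 at D20 in *A. cahirinus*, and for 3, 2, 0 and 0 of 3 in *M. musculus*, with 1 lower at D20.

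Of the other marker lists, skeletal muscle had 3 of 4 called lower on each day in *A. cahirinus*, with 1 called higher up to D15, and 4 of 4 lower on each day in *M. musculus*. Endothelium had 1, 1, 2 and 3 of 4 called lower in *A. cahirinus* and 4, 2, 3 and 3 of 4 called higher in *M. musculus*. Of 5 epidermal and follicle markers, 3 were called higher and 1 lower at D5 in *A. cahirinus*, then 1 higher and 3, 4 and 4 lower, and in *M. musculus* 2 were called higher at D5 and 2, 3, 2 and 3 lower from D5 to D20. Of 4 cartilage markers with a component in *A. cahirinus*, 1 was called higher on each day and 3, 2, 2 and 3 lower, and of 4 placed in *M. musculus* 2, 2, 1 and 1 were called higher and 1 lower on each day. In *A. cahirinus* the components chosen for 2 epidermal, 2 muscle, 1 cartilage and 1 fibroblast marker matched another gene better. Among them was the muscle component called higher, chosen for *Acta1* and matching *Actg1* better. The cartilage component called higher was chosen for *Col2a1* and matched *Col5a3* better. The epidermal component called higher after D5 was chosen for *Krt5* and matched *Krt78* better. By the features chosen, no marker of epidermis, muscle, endothelium or fibroblasts was at 0 in any group.

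**Figure D5:**
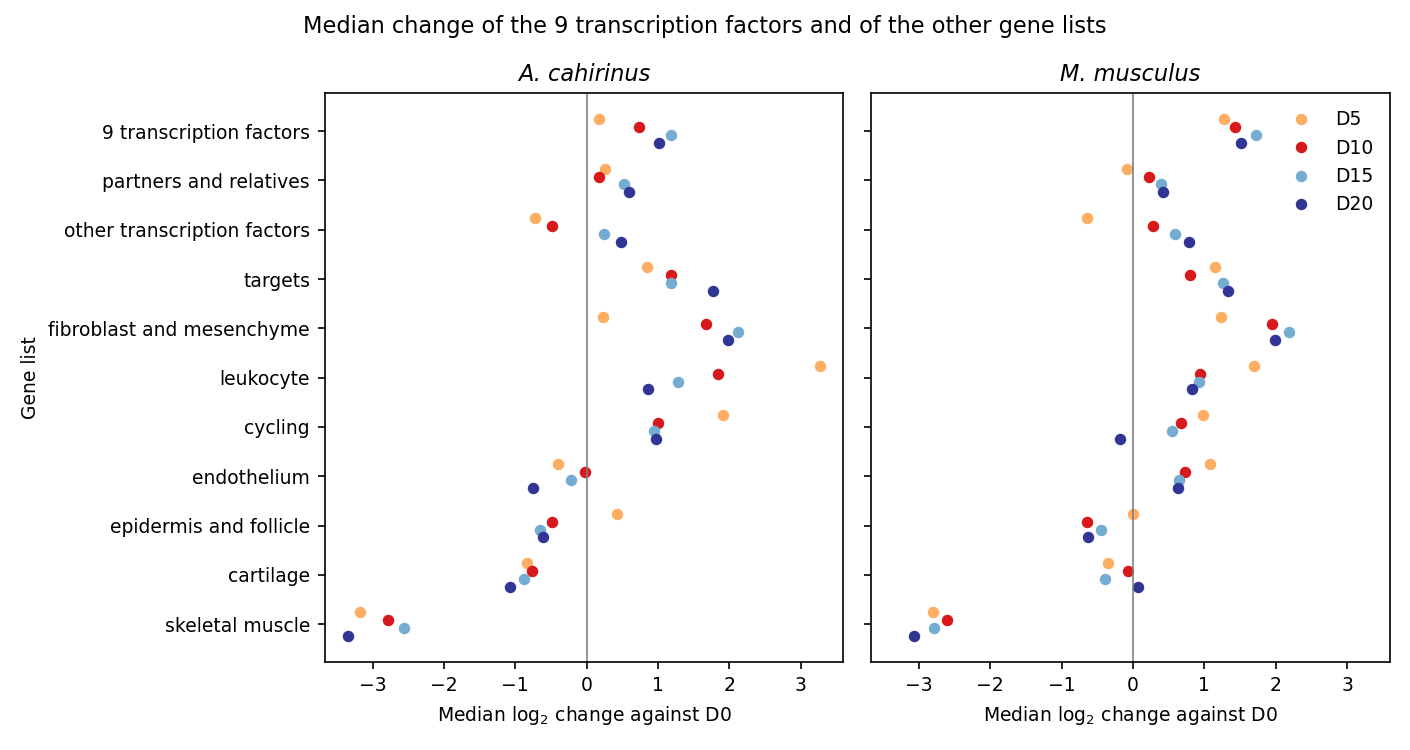
Median log2 change against D0 of the 9 members and of each gene list by day, in *A. cahirinus* (left) and *M. musculus* (right). The median of the members lies between 0.18 and 1.18 in *A. cahirinus*, with the mixed *Runx2* component, and between 1.28 and 1.72 in *M. musculus*, below that of the fibroblast and mesenchyme list from D10 on in both.

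By the distance between the 4 log2 changes, the listed gene most like each member was found among 80 genes in *A. cahirinus* and 73 in *M. musculus* with a mean of at least 10. In *A. cahirinus* it was *Pdgfrb* for *Prrx1* (0.23), *Zeb1* for *Snai2* (0.26), *Pdgfra* for *Prrx2* (0.48), *Sox4* for *Twist2* (0.50), *Tbx15* for *Msx1* (0.57) and *Tbx18* for *Twist1* (0.62). In *M. musculus* it was *Tcf12* for *Prrx1* (0.20), *Cdh2* for *Twist2* (0.27), *Foxf1* for *Twist1* (0.28), *Alpl* for *Msx1* (0.37), *Meis2* for *Snai2* (0.42), *Itgb2* for *Runx1* (0.46), *Col6a1* for *Prrx2* (0.62), *Vim* for *Snai1* (0.65) and *Sox4* for *Runx2* (0.68). *Pdgfra*, *Pdgfrb* and *Col6a1* are fibroblast and mesenchyme markers, and *Itgb2*, a leukocyte integrin, is of the leukocyte list. For *Runx1* in *A. cahirinus* the nearest was the component chosen for *Col2a1* (0.50), which matched *Col5a3* better, and for *Runx2* it was *Dlx5* (0.59) by the mixed component. By the component with no *Tsc22d3* contig it was the component chosen for *Col2a1* too (0.67). For *Snai1* it was its own component, chosen also for *Snai3*, and the next was *Aurkb* at 1.09.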

How the data were processed

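Group and time point were taken from the labels. Per the study's methods and the labels, the authors assembled the *A. cahirinus* transcriptome, estimated expression with RSEM against it or against mm10 transcripts, and compared each day with D0 by EBSeq. The deposited tables of the authors hold the outcome of that comparison only: 2 fold changes, given as the ratio of D0 over the day, and a posterior probability, a score from 0 to 1. Since they hold no values per animal, the authors' calls were used and no test was run. The deposited BLASTN table gives identity in percent, a bit score and, in other units, length and position in bases. The deposited reference sequences gave the names and bases.

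Group means were recovered from the 2 fold changes, which add 0.01 or a prior to the means, and scaled to a common D0 within a species. The recovery was tested on data simulated with the same formulas. That checks the arithmetic, and cannot show whether the deposited fold changes follow these formulas. Log2 changes are positive when higher after injury. *M. musculus* gene numbers were named by placing transcripts along GRCm38 (minimap2 2.31, GENCODE M21) at a probability of at least 0.9. Of 1711 placed numbers with a known name held out, 1694 (99.0%) were right and 281 further ones were not placed. The members and lists were chosen with earlier results of these data known. All members were named, and of each list the genes with the highest and lowest mean change in each species among those with a mean of at least 10. Alternatives were a probability of 0.99, a least log2 change of 1, size alone, a least mean of 10, other components, the other fold change, a pseudocount of 1 and centring. A mean of 10 has a counting error of 18.3%. Python 3.11.15, NumPy 2.4.6 and pandas 2.3.3 were used.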

Additional observations from a re-analysis of the deposited data

Results flagged for a closer look

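*Runx2* was the 1 member whose change was negative on all 4 days in *A. cahirinus* and positive on all 4 days in *M. musculus*, a mean difference of -2.96 on the log2 scale, which was not tested. The *A. cahirinus* value is that of the component that also holds 16 *Tsc22d3* contigs, and with the next *Runx2* component the difference was -0.12.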

How the results depend on the processing

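A posterior probability of 0.99, a least mean of 10, the top component at any identity, reciprocal best hits and components whose own best match is the gene left all counts of called members within 1.5 times. A least log2 change of 1 and size alone each lowered the count at D5 in *A. cahirinus* from 4 to 2. All 72 log2 changes stayed within 1.5-fold with the shrunken fold change, a pseudocount of 1 and centring. The component mattered: for *Runx2* in *A. cahirinus* the sum of components gave 1.84, 1.85 and 1.52 at D10, D15 and D20 and the next component 2.06, 2.06 and 1.88, and the mean difference between species went from -2.96 to -0.39 and -0.12. Both leave out the whole mixed component, its *Runx2* contigs included, and the cause was not tested. The next component of *Msx1* gave 5.13 at D5, from no reads at D0. A further 15 changes under the next component and 1 under the sum moved by over 1.5-fold without turning a called direction. Leaving out D15 moved no difference between species by that much. No paired analysis was possible because the tables hold no values per animal, and no replicate could be left out for the same reason. Depth limits *Prrx2*, *Twist2* and *Snai1* in *M. musculus* most, where D0 means were 27.6 or less.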
